A study of Mus musculus with 14 samples.

Results

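The Myc genes and the G1 cell cycle regulators described here are the 10 genes *Myc*, *Mycn*, *Ccnd1*, *Ccnd2*, *Ccnd3*, *Ccne1*, *Cdkn1a*, *Cdkn1b*, *Cdkn2a* and *Cdkn2b*, taken by name from a table of 23298 genes, and each of the 10 was found and passed the filter on low values in every comparison. RNA was sequenced from 14 mouse embryonic stem (ES) cell lines, each grown from a single hybrid blastocyst, in serum with leukemia inhibitory factor on inactivated embryonic fibroblasts that were depleted before RNA was isolated. Lines of the BC cross had a C57BL/6J mother and a CAST/EiJ father, with 3 XX, 3 XY and 2 XO lines. Lines of the reciprocal CB cross had a CAST/EiJ mother and a C57BL/6J father, with 3 XX and 3 XY lines. No agent or engineered allele distinguished the groups, and all 14 lines carried autosomes of both parental strains. The strain that gave the X and Y chromosomes differed between groups. The comparisons asked whether expression depended on the sex chromosomes (XX, XY or XO) and on the direction of the cross. Numbers of the CB XX lines only follow the columns of the table.

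Progression from G1 into DNA synthesis is driven by cyclin-dependent kinases. D cyclins, encoded by *Ccnd1*, *Ccnd2* and *Ccnd3*, bind Cdk4 and Cdk6, and cyclin E, encoded by *Ccne1*, binds Cdk2; both kinds of kinase phosphorylate the retinoblastoma protein and release E2F transcription factors. The CIP/KIP inhibitors of *Cdkn1a* (p21) and *Cdkn1b* (p27) bind cyclin and kinase complexes broadly, whereas the INK4 inhibitors of *Cdkn2a* and *Cdkn2b* bind Cdk4 and Cdk6. *Myc* and *Mycn* encode transcription factors that pair with Max and drive growth and proliferation. Mouse ES cells have a short G1 phase, and in them *Mycn* and *Myc* can stand in for each other to a large extent.

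The identity of the lines was examined before the results. All 11 ES cell marker genes were detected in every line, with a mean log2 level of 12.96 to 13.95. RNA of *Uty*, a Y-linked gene, reached 2088, 1529 and 945 in BC XY lines and 1149 in CB XY 1. It was at 19.6 and 45.4 in a pair of lines whose labels are CB XY 2 and CB XY 3, within the range of the XX and XO lines (12.8 to 195). Calls over both crosses and in the CB cross that include this pair, called the *Uty*-low lines below, are therefore also given without them. The X-linked genes *Pola1*, *Eda2r* and *Dkc1*, from the lists below, were called over both crosses. Each was higher in all 6 XX lines than in all 6 lines labelled XY, the *Uty*-low lines included. Whether the labels of this pair are right was not tested. The mean log2 level of 31 mesenchymal genes, which mark fibroblasts such as feeder cells, was 10.99 to 12.1 in the BC XX lines and 8.81 to 10.4 in the other 11 lines, and the summed value was 218063 to 462155 in the BC XX lines against 72446 to 128626 in the others, with no marker at 0. RNA of another Y-linked gene, *Ddx3y*, was also present in the BC XX lines, at values of 328, 486 and 1024, against 49.7 to 196 in the CB XX and 101 and 102 in the BC XO lines. It was at 2268, 1397 and 1115 in BC XY lines, 1084.5 in CB XY 1, and 27.0 and 126 in the *Uty*-low lines. *Eif2s3y* was at 102 to 317 in BC XX and 40.8 to 255 in BC XY lines. *Kdm5d* was at 36.9 to 123 in BC XX and 6.02 to 28.7 in BC XY lines. *Xist* RNA, also read as a check of the labels, was at 3875, 4374 and 4058 in BC XX lines. It was at 1723, 1445 and 3803 in CB XX lines, against 801 to 1611 in XY lines and 1219 and 1650 in XO lines. CB XX 2 thus lay within the range of the XY and XO lines and CB XX 1 just above it, for which the cause was not tested.

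The deposited values count reads per gene after the authors brought all libraries to one depth. If the smallest step between values is taken as 1 read, the lines held from about 11900000 to 69600000 reads, and the fewest reads behind a value of the 10 genes were 49, for *Cdkn2b* in CB XY 2. Divided by the length of the merged exons in kb, the mean value over the 14 lines was highest for *Ccne1*, at 2239 ± 370 (SD, n = 14) per kb. *Ccnd1* (1968 ± 466), *Mycn* (1520 ± 434), *Ccnd3* (1449 ± 575) and *Cdkn1a* (1113 ± 207) followed, with lower levels per kb of *Ccnd2* (596 ± 645), *Myc* (332 ± 108), *Cdkn2a* (225 ± 138), *Cdkn2b* (160 ± 89.6) and *Cdkn1b* (137 ± 61.1). Neighbors in this order had overlapping ranges of mean ± SD in each case. *Ccne1* exceeded *Ccnd1* in 9 of 14 lines and *Ccnd1* exceeded *Mycn* in 12, whereas *Mycn* exceeded *Ccnd3* in 8 and *Ccnd2* exceeded *Myc* in 7. The spread between lines was far less even. *Ccnd2* had an SD of 1.19 on the log2 scale over the 14 lines, at the 98.2 percentile of 16276 genes, and *Cdkn2b* had 0.82, whereas *Ccne1* had 0.24 and *Cdkn1a* 0.25 (median of the genes 0.39).

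**Figure D1:**
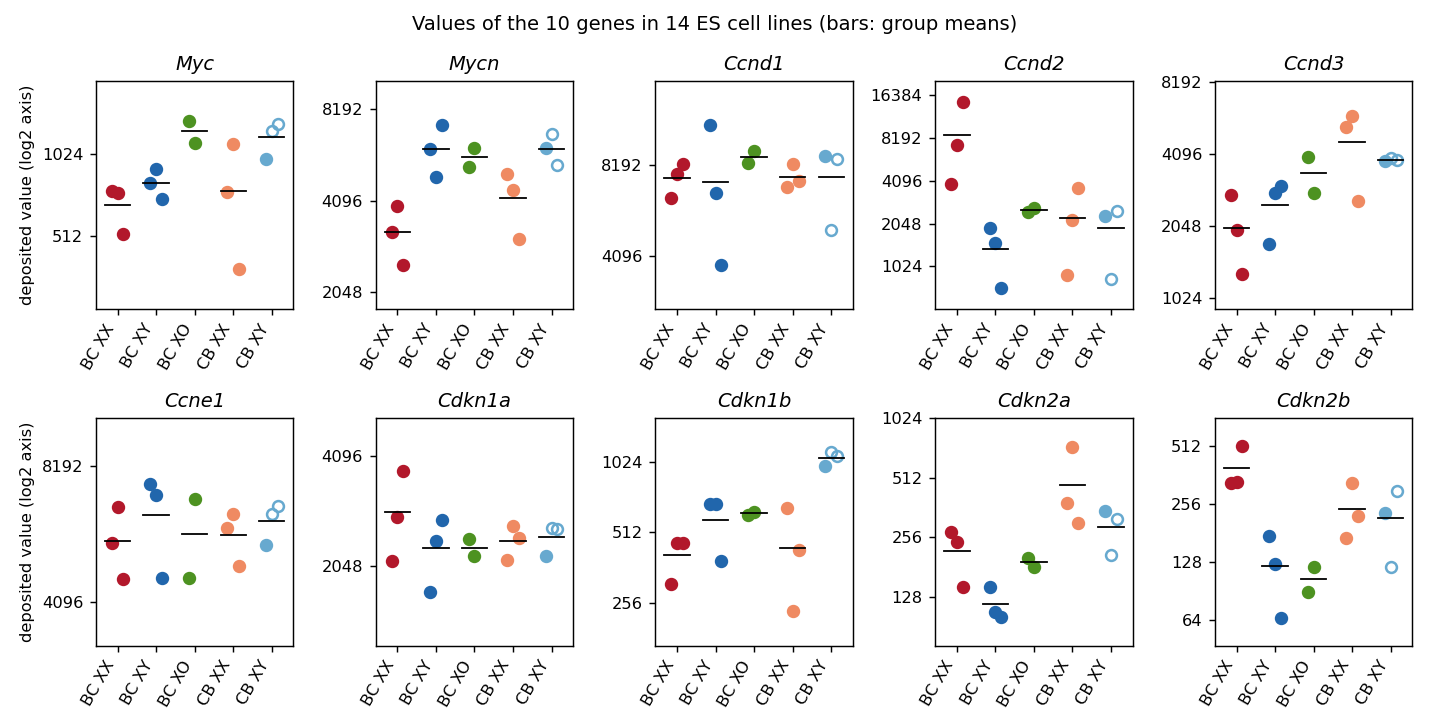
Values of the 10 genes in the 14 lines, 1 panel per gene, on a log2 axis, with the groups along the horizontal axis, a point for each line and a bar for each group mean; open points are the *Uty*-low lines. *Ccnd2* spans values from 718 to 14759, whereas *Ccne1* stays between 4605 and 7473.

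*Mycn* RNA was lower in XX than in XY lines, and this was the sole call among the 10 genes when all 6 XX lines were compared with all 6 XY lines. *Mycn* lies on chromosome 12 (mm9 chr12:12942902-12948720, minus strand) and encodes the Myc protein with the higher RNA level in these cells. Values were 3230, 3945 and 2518 in the BC XX lines and 5023, 4428 and 3051 in the CB XX lines. XY lines had 6057, 4893 and 7258 in BC and 6097, 6779 and 5370 in CB. Of the XX lines 5 were below all 6 XY lines, and CB XX 1 overlapped with BC XY 2. The log2 fold change, on log2(value + 5) as throughout, was -0.74 (SE 0.16), or 1.67-fold lower in XX lines (limma, Benjamini-Hochberg adjusted p = 0.0197). In this comparison 5.21% of 15311 genes tested were called and 1.99% were called lower in XX lines, so that 1 call among 10 genes is near the background. An unadjusted p below 0.05 was found for 5 of the 10, against 23.1% of genes, and XX and XY lines did not overlap for 0 of the 10, against 3.52% of genes. In bulk RNA, fewer cells of a type and less RNA per cell cannot be told apart. The adjusted p was 0.0763 without the *Uty*-low lines (log2 fold change -0.74), 0.0511 without BC XX 1, and 0.188 with the mesenchymal level as a covariate (log2 fold change -0.46).

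Within crosses, the *Mycn* difference was -0.91 (SE 0.21) between BC XX and BC XY lines, whose values did not overlap (limma, adjusted p = 0.0235), and -0.57 (SE 0.21) between CB XX and CB XY lines, whose values did not overlap either (adjusted p = 0.167). The CB value was -0.58 without the *Uty*-low lines (adjusted p = 0.479) and -0.36 without CB XX 3 (adjusted p = 0.383). The BC call was lost without BC XX 3 or without BC XY 3 (adjusted p = 0.116 and 0.0803) and with the mesenchymal level as a covariate (-0.36, adjusted p = 0.818). Over the 14 lines, *Mycn* was lower where the mesenchymal level was higher (Pearson r = -0.79, n = 14, a description over lines that share group and depth). The part of the mesenchymal level in the result was not tested beyond that covariate, and in the BC cross the level and the XX group cannot be told apart. RNA of chromosome 12 genes was at a median deviation of -0.27 (log2) in CB XX 2, and centring each chromosome in each line left *Mycn* at -0.71 between XX and XY lines (adjusted p = 0.0455).

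*Myc*, on chromosome 15 (mm9 chr15:61816946-61821929, plus strand), differed in the same direction as *Mycn* without passing the test. It had values of 746, 736 and 522 in BC XX and 739, 1111 and 388 in CB XX lines, against 798, 899 and 699 in BC XY and 977, 1235 and 1316 in CB XY lines. The groups overlapped, with 2 of 6 XX lines below all XY lines. The log2 fold change was -0.52 (SE 0.23, 95% interval -1.02 to -0.02) for XX against XY, with an adjusted p of 0.201 by limma, and it was -0.27 within BC and -0.77 within CB lines (adjusted p = 0.629 and 0.180). The XX against XY value without the *Uty*-low lines was -0.32 (adjusted p = 0.568) and the CB value -0.51 (adjusted p = 0.680), and the CB value was -0.36 without CB XX 3. Per kb, *Mycn* exceeded *Myc* in every line, from 3.23-fold in BC XO 1 to 8.57-fold in BC XY 3. The sum of both per kb was 957 to 1469 in BC XX and 1070 to 1798 in CB XX lines, and 1817 to 2514 in the 6 XY lines, with no overlap between XX and XY lines, a sum formed after the values were seen.

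To show the regulatory sequence of the Myc gene that was called, the stretch from 250 to 91 bases before the RefSeq start of *Mycn* follows (GRCm38.p6, chr12:12941927-12942086, minus strand, 5′ to 3′). Of the 10 genes, 7 had a promoter in the RefSeq table. Capitals mark matches on either strand to the E2F motifs TTTGGCGC and TTTCGCGC and to the GC box GGGCGG.
Mycn: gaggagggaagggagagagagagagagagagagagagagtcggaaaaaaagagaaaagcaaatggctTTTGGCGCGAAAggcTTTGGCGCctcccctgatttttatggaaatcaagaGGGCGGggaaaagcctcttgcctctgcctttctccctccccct
TTTGGCGC matched 183 to 176 and 168 to 161 bases before the start, TTTCGCGC matched on the opposite strand at 179 to 172, overlapping the former, and GGGCGG matched at 133 to 128 in this stretch and at 63 to 58 outside it. TTTGGCGC is found in the 250 bases before the start of 0.417% of 32851 promoters, TTTCGCGC in 0.256% and GGGCGG in 32.7%. The E-box CACGTG (6.02% of promoters) and the TATA box TATAAA (12.4%) had no match in the *Mycn* window.

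*Ccnd2* was higher in BC XX than in BC XY lines, by more than any of the other 9 genes. The gene, which encodes cyclin D2, lies on chromosome 6 (mm9 chr6:127075797-127101066, minus strand). BC XX lines had 3894, 7305 and 14759 and BC XY lines 1890, 1486 and 718, so that the lowest XX line was above the highest XY line. The log2 fold change was 2.56 (SE 0.56, 95% interval 1.35 to 3.77), or 5.91-fold (limma, adjusted p = 0.0184). In the BC cross 5.7% of 16261 genes were called, against 3 of the 10 genes described here (*Ccnd2*, *Cdkn2b* and *Mycn*), and the lines of the groups did not overlap for 27.1% of genes, against the same 3 genes. The lines within BC XX differed 3.79-fold among themselves.

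In the CB cross, *Ccnd2* had values of 891, 2170 and 3655 in XX lines and 2316, 833 and 2522 in XY lines. These groups overlapped, and the log2 fold change was 0.18 (SE 0.56, adjusted p = 0.902). Over both crosses it was 1.37 (SE 0.55, 95% interval 0.19 to 2.55, limma, adjusted p = 0.157), with 4 of 6 XX lines above all 6 XY lines. The interaction of sex and cross for *Ccnd2* was 2.38 (SE 0.80, adjusted p = 0.360), so that the difference between the crosses did not pass the test.

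The level of *Ccnd2* followed that of the 31 mesenchymal genes closely over the 14 lines (Pearson r = 0.97, n = 14, a description). BC XX 3 had both the highest *Ccnd2* value and the highest mesenchymal level, and BC XY 3 had both the lowest *Ccnd2* value and the lowest mesenchymal level. Adjusted for the mesenchymal level, the BC difference turned to -0.38 (SE 0.40, limma, adjusted p = 0.843). The call was also lost without BC XX 2, BC XX 3, BC XY 2 or BC XY 3, each with an adjusted p between 0.0590 and 0.101. With values centred by chromosome it was 2.51 (adjusted p = 0.0293). The mesenchymal level and the BC XX group cannot be told apart.

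**Figure D2:**
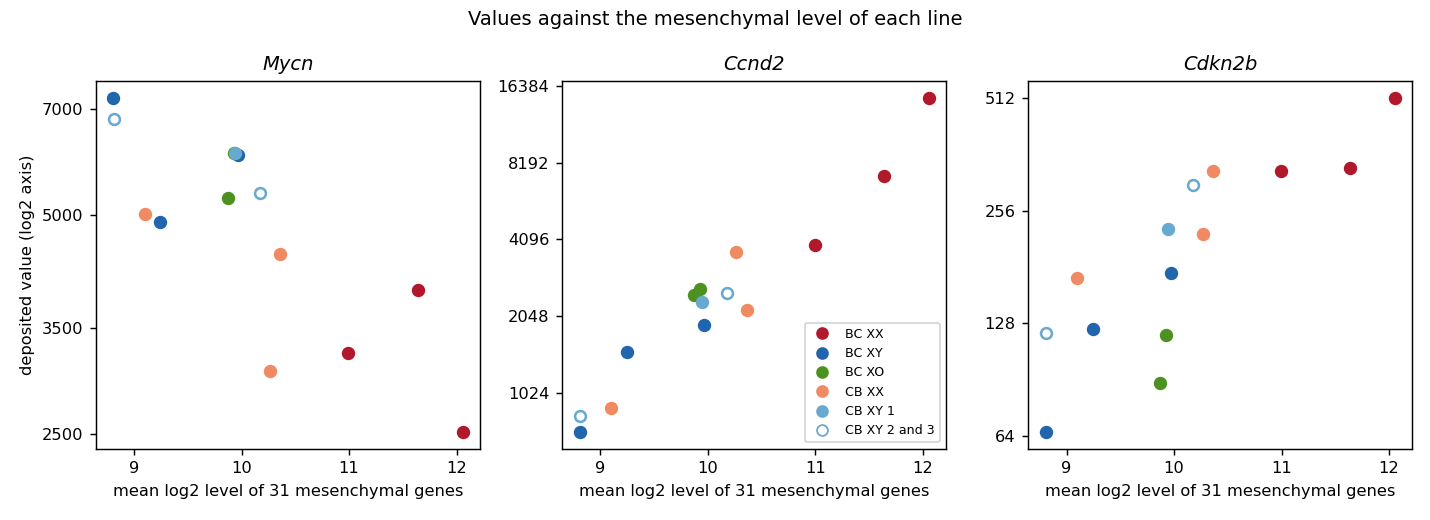
Values of *Mycn*, *Ccnd2* and *Cdkn2b* on log2 axes against the mean log2 level of 31 mesenchymal genes, with a point for each of the 14 lines, colored by group; open points are the *Uty*-low lines. *Ccnd2* rises with that level (r = 0.97), as does *Cdkn2b* (r = 0.83), and *Mycn* falls (r = -0.79).

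For cyclin D1 and cyclin D3 RNA, 0 differences between XX and XY lines passed the test. *Ccnd1* on chromosome 7 had a lowest, median and highest value of 6349, 7439 and 8241 in the 6 XX lines and of 3836, 7557 and 11033 in the 6 XY lines, with a log2 fold change of 0.11 (SE 0.21, 95% interval -0.35 to 0.57, limma, adjusted p = 0.794). *Ccnd3* on chromosome 17 had 1288, 2672 and 5892 in XX lines and 1712, 3420 and 3937 in XY lines, with a log2 fold change of -0.09 (SE 0.34, 95% interval -0.81 to 0.63, adjusted p = 0.894). For both genes the XX lines overlapped with the XY lines, and the intervals include changes of up to 0.57 and 0.81 on the log2 scale. Exons of *Ccnd1* and *Ccnd3* overlap with exons of *Oraov1* and *Bysl* on the opposite strand, and whether the counting used strand is not given in the sources used here.

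The share of *Ccnd2* among the D cyclins differed more between lines than the sum of the D cyclins. Per kb, the 3 D cyclins together came to 2462 in BC XY 3 and up to 5301 in BC XX 3, whereas *Ccnd2* made up from 3.62% of the sum in CB XX 1 to 48.8% in BC XX 3. The share of *Ccnd2* was 19.2%, 30.9% and 48.8% in the BC XX lines and at most 17.4% in the other 11 lines. *Ccnd1* contributed from 40.4% to 72.5% in the 14 lines, and *Ccnd3* from 10.8% in BC XX 3 to 54.7% in CB XY 2.

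*Ccne1*, which encodes cyclin E1 on chromosome 7, was the most even of the 10 genes. Its lowest, median and highest values were 4605, 5761 and 6634 in XX and 4647, 6553 and 7473 in XY lines. Its log2 fold change was -0.14 (SE 0.14, 95% interval -0.43 to 0.15, limma, adjusted p = 0.558), and the values of XX and XY lines overlapped. Groups accounted for 9.13% of its variance over the 14 lines, against 10.6% for *Ccnd1* and 20.7% for *Cdkn1a*. For the rest the share ran from 55.6% (*Myc*) to 76.5% (*Cdkn2a*), with *Mycn* at 73.1%. With 5 groups among 14 lines, part of the variance lies between groups even without a group difference.

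*Cdkn1b* was lower in CB XX than in CB XY lines. The gene, on chromosome 6 (mm9 chr6:134870419-134875531, plus strand), encodes the p27 protein that restrains Cdk2. Values were 652, 235 and 433 in the CB XX lines and 982, 1132 and 1089 in the CB XY lines, with no overlap. The difference was -1.38 (SE 0.32, 95% interval -2.06 to -0.71), or 2.61-fold lower (limma, adjusted p = 0.0278). In the CB cross 3.57% of 16261 genes were called, against this 1 gene of 10, and the lines did not overlap for 23.2% of genes, against 2 of the 10, *Cdkn1b* and *Mycn*.

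Without the *Uty*-low lines, the *Cdkn1b* log2 fold change was of like size, at -1.27 (SE 0.49), against the remaining line, CB XY 1, whose spread was taken to be that of the other groups, and the call was lost (adjusted p = 0.297). The call was lost without CB XX 2 (-0.997, adjusted p = 0.126), and without CB XY 1, CB XY 2 or CB XY 3 (adjusted p between 0.0719 and 0.0962). With the mesenchymal level as a covariate the difference was -1.37 (adjusted p = 0.0271). RNA of chromosome 6 genes as a whole was raised in CB XX 1, CB XY 2 and CB XY 3, by a median deviation of 0.22, 0.28 and 0.25 on the log2 scale, and was at -0.12 in CB XY 1. Values centred by chromosome in each line gave -1.29 (SE 0.29, adjusted p = 0.0260).

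**Figure D3:**
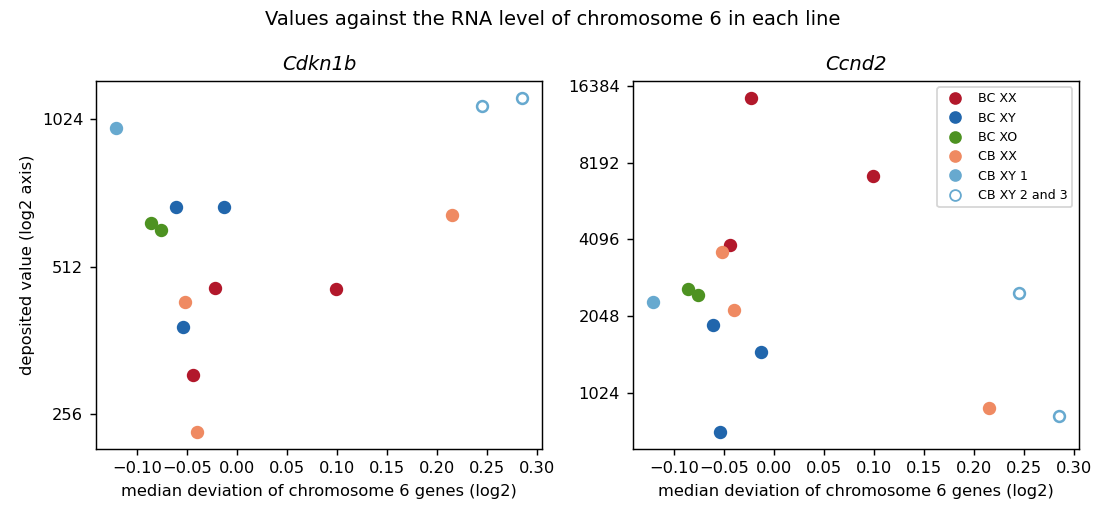
Values of *Cdkn1b* and *Ccnd2*, both on chromosome 6, on log2 axes against the median deviation (log2) of chromosome 6 genes in each of the 14 lines; open points are the *Uty*-low lines. The lines with raised chromosome 6 RNA hold *Cdkn1b* values of 652, 1132 and 1089, and CB XY 1, with the lowest chromosome 6 level, holds 982.

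Within BC, *Cdkn1b* had values of 307, 461 and 463 in XX lines and 678, 677 and 386 in XY lines, which overlapped (log2 fold change -0.47, SE 0.32, limma, adjusted p = 0.399). Over both crosses the log2 fold change was -0.93 (SE 0.28, 95% interval -1.54 to -0.32, adjusted p = 0.0740), with 2 of 6 XX lines below all XY lines. Without CB XX 1 it was called (adjusted p = 0.0280), as it was without BC XY 3 (adjusted p = 0.0243). Leaving out CB XX 1 also brought *Ccnd2* (1.79, adjusted p = 0.0251) and *Cdkn2b* (1.11, adjusted p = 0.0475) past the threshold. Calls rose across the whole table in that fit, to 1746 of 15445 genes, against 797 of 15311 with no line left out. Without BC XY 3, 779 of 15434 genes were called. With the cross as a covariate, where 1697 of 15311 genes were called, the *Cdkn1b* difference passed the test (adjusted p = 0.0349). Without the *Uty*-low lines it was -0.67 (adjusted p = 0.287). The interaction of sex and cross was 0.91 (SE 0.45, adjusted p = 0.583).

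The promoter of *Cdkn1b* is shown because the gene carries the call of the CB cross. It is given over 250 bases before the RefSeq start (GRCm38.p6, chr6:134920151-134920400, plus strand, 5′ to 3′), with capitals at the match to GGGCGG, 61 to 56 bases before the start.
Cdkn1b: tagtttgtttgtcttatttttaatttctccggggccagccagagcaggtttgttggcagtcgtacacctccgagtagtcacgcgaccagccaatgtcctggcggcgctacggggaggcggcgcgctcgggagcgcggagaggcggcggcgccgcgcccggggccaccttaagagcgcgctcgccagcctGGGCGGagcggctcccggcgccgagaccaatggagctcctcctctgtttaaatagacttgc
None of the other 4 motifs matched in this window, which is 64.4% G and C and holds 28 CG dinucleotides, against medians of 52.4% and 6 over all promoters of that table.

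*Cdkn1a*, which encodes p21, a target of p53, on chromosome 17, had a lowest, median and highest value of 2108, 2539 and 3714 in XX lines and of 1737, 2490 and 2738 in XY lines. The groups overlapped, and the log2 fold change was 0.14 (SE 0.15, 95% interval -0.19 to 0.47, limma, adjusted p = 0.617). The highest value was that of BC XX 3, the line with the highest mesenchymal level.

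*Cdkn2b* was higher in BC XX than in BC XY lines, the third call of that cross. It encodes the INK4 inhibitor p15 and lies next to *Cdkn2a* on chromosome 4 (mm9 chr4:88952198-88956941, minus strand). BC XX lines had 327, 333 and 513 and BC XY lines 175, 124 and 65.6, with no overlap. The difference was 1.72 (SE 0.39, 95% interval 0.89 to 2.55), or 3.29-fold (limma, adjusted p = 0.0207). The call was lost without BC XX 2, BC XX 3, BC XY 2 or BC XY 3 (adjusted p between 0.0539 and 0.106). Adjusted for the mesenchymal level it was -0.03 (SE 0.42, adjusted p = 0.994).

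In the CB cross, *Cdkn2b* had values of 169, 327 and 222 in XX lines and 228, 120 and 300 in XY lines, which overlapped (log2 fold change 0.19, SE 0.39, limma, adjusted p = 0.841). For XX against XY lines of both crosses it was 0.95 (SE 0.34, 95% interval 0.23 to 1.68, adjusted p = 0.117), with 4 of 6 XX lines above all XY lines. The interaction of sex and cross was 1.53 (SE 0.55, adjusted p = 0.398). *Cdkn2b* also followed the mesenchymal level over the 14 lines (Pearson r = 0.83, n = 14), and its r with *Ccnd2* was 0.76, as a description.

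The 250 bases before the RefSeq start of *Cdkn2b*, the INK4 gene that was called, are given in the same way (GRCm38.p6, chr4:89311033-89311282, minus strand, 5′ to 3′) and hold no match to the 5 motifs, so that no base is in capitals.
Cdkn2b: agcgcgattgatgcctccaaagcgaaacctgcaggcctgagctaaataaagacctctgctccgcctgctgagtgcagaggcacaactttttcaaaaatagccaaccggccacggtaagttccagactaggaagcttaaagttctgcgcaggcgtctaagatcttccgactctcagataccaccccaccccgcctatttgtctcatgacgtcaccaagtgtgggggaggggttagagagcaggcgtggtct
The window is 53.6% G and C and holds 12 CG dinucleotides.

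*Cdkn2a*, on chromosome 4 (mm9 chr4:88920377-88940557, minus strand), encodes p16 and, from another first exon and reading frame, the ARF protein that acts on Mdm2, and a value per gene does not separate the transcripts. Its values were 271, 243 and 144 in BC XX and 145, 108 and 102 in BC XY lines, which overlapped at a single line on each side (log2 fold change 0.83, SE 0.33, limma, adjusted p = 0.1502). In the CB cross they were 382, 732 and 304 in XX and 347, 209 and 315 in XY lines, again with overlap (0.62, SE 0.33, adjusted p = 0.331). The log2 fold change for XX against XY was 0.73 (SE 0.38, 95% interval -0.09 to 1.55, adjusted p = 0.271). In contrast to *Cdkn2b*, it showed little relation with the mesenchymal level (Pearson r = 0.16, n = 14).

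**Figure D4:**
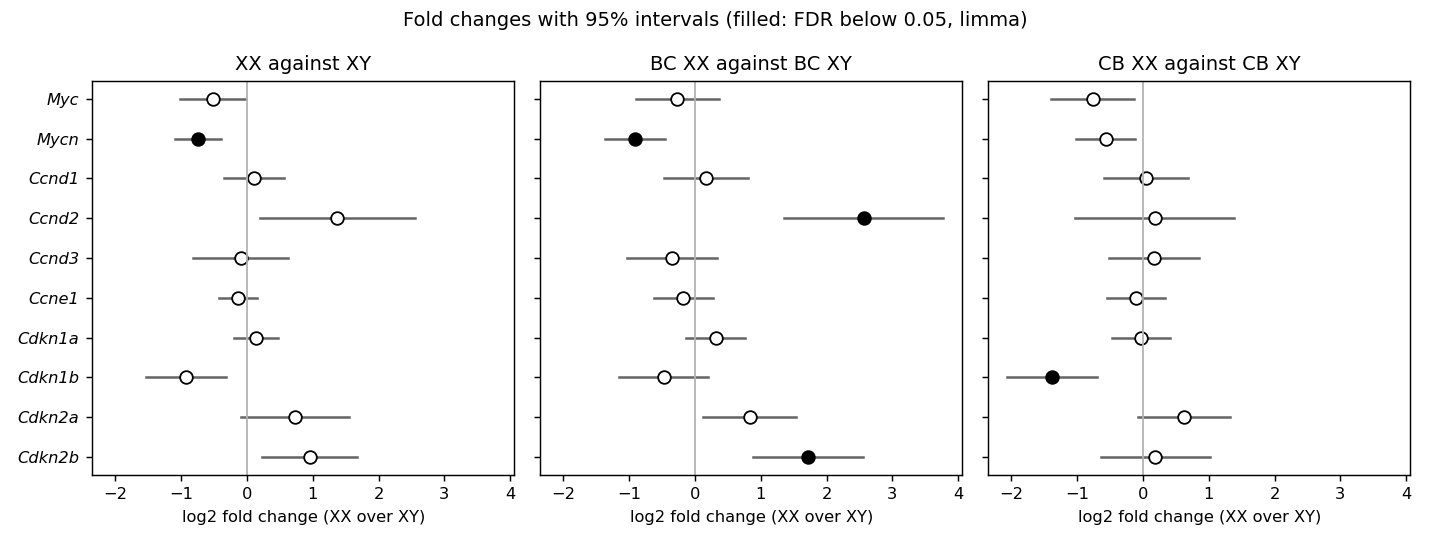
Log2 fold changes of the 10 genes (points) with 95% intervals (lines) in the comparisons of XX with XY lines over both crosses and within the BC and CB crosses; filled points passed an FDR of 0.05. Filled are *Mycn* at -0.74 over both crosses, *Mycn* at -0.91, *Ccnd2* at 2.56 and *Cdkn2b* at 1.72 in the BC cross, and *Cdkn1b* at -1.38 in the CB cross.

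Leaving out the *Uty*-low lines, the values of the other genes not yet given without them were as follows. For XX against XY, *Ccnd2* was at 1.36 (adjusted p = 0.302), *Cdkn2a* at 0.97 (adjusted p = 0.281) and *Cdkn2b* at 1.11 (adjusted p = 0.140), and *Ccnd1*, *Ccnd3*, *Ccne1* and *Cdkn1a* lay between -0.10 and 0.21. In the CB cross *Ccnd2* was at -0.27 (adjusted p = 0.922), *Cdkn2a* at 0.34 (adjusted p = 0.818) and *Cdkn2b* at 0.02 (adjusted p = 0.995). The interaction of sex and cross was 2.83 for *Ccnd2* (adjusted p = 0.516) and 1.70 for *Cdkn2b* (adjusted p = 0.571; all limma).

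The XO lines allowed comparisons with the loss of an X chromosome and the absence of a Y chromosome in the same cross. They share their control lines with the comparison of BC XX and BC XY lines, so that the values are given side by side. *Cdkn2b* was lower in the XO lines, at 88.5 and 120, than in all 3 BC XX lines (327 to 513), with a log2 fold change of 1.84 (SE 0.43) for XX over XO (limma, adjusted p = 0.0339). In this comparison 4.66% of genes were called, against this 1 of 10, and the lines did not overlap for 47.2% of genes, against 7 of 10. The call was lost without BC XX 2, BC XX 3, BC XO 1 or BC XO 2 (adjusted p between 0.0654 and 0.272) and with the mesenchymal level as a covariate (0.54, adjusted p = 0.623), and with no filter on low values (adjusted p = 0.0563). *Mycn* had values of 5284 and 6099 in the XO lines, above all 3 BC XX lines, but its difference of -0.84 (SE 0.24) did not pass the test (adjusted p = 0.0577). Both XO lines were also above all 3 BC XX lines for *Myc*, at 1349 and 1123 against 522 to 746 (-0.90, SE 0.33, limma, adjusted p = 0.119). The same held for *Ccnd3* (-0.81, SE 0.36, adjusted p = 0.186), and neither was called. *Ccnd2* had values of 2488 and 2615 in the XO lines, below the BC XX and above the BC XY lines (1.55 for XX over XO, SE 0.63, adjusted p = 0.154).

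Between BC XO and BC XY lines, 0 of the 10 genes were called by limma and 0 had an unadjusted p below 0.05, against 0.00615% and 1.49% of all genes. The lines did not overlap for *Myc*, *Ccnd2* and *Cdkn2a*, 3 of the 10 against 17.6% of all genes. *Myc* had the highest value of all 14 lines in BC XO 1, at 1349, and 1123 in BC XO 2. *Cdkn1b*, with values of 607 and 629 in the XO lines, lay within the BC XY range, as did *Mycn* and *Cdkn2b*, *Cdkn2b* with both XO values between 65.6 and 175.

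The direction of the cross was compared within XX and within XY lines. *Ccnd3* was lower in BC XX lines, at 2743, 1971 and 1288, than in CB XX lines, at 5314, 5892 and 2601, although BC XX 1 overlapped with CB XX 3 (log2 fold change -1.18, SE 0.32, limma, adjusted p = 0.0411). In this comparison 7.15% of genes were called, against this 1 of 10, and the lines did not overlap for 26.8% of genes, against 3 of 10. The *Ccnd3* call was lost in 10 of 14 fits that left out a line, those without BC XX 2, BC XX 3, BC XY 2, either BC XO line, CB XX 1, CB XX 2 or any CB XY line (adjusted p up to 0.223, and 0.05002 without CB XY 2), and in the fit without the *Uty*-low lines (adjusted p = 0.0704). With the mesenchymal level as a covariate the difference was -0.47 (adjusted p = 0.785). RNA of chromosome 17 genes was at a median deviation of -0.25 in BC XX 3 and -0.20 in CB XX 2, and the adjusted p with chromosome-centred values was 0.0509. *Ccnd2* was higher in all 3 BC XX than in all 3 CB XX lines (1.96, SE 0.56), at an adjusted p of 0.0505. The lines also did not overlap for *Cdkn2b* (0.72, SE 0.39, adjusted p = 0.255) and *Cdkn2a*. For *Cdkn2a*, values were 144 to 271 in BC XX and 304 to 732 in CB XX lines (-1.04, SE 0.33, limma, adjusted p = 0.0692).

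Between BC XY and CB XY lines, 0 of the 10 genes passed the test by limma, where 0.64% of all genes did, and 2 of the 10 had an unadjusted p below 0.05, against 18.7%. These were *Cdkn2a*, with values of 102 to 145 in BC XY and 209 to 347 in CB XY lines (log2 fold change -1.24, SE 0.33, adjusted p = 0.0815), and *Cdkn1b*, with 386 to 678 against 982 to 1132 (-0.92, SE 0.32, adjusted p = 0.143). When the *Uty*-low lines were left out, CB XY 1 alone gave -1.53 for *Cdkn2a* (adjusted p = 0.337) and -0.80 for *Cdkn1b* (adjusted p = 0.563). The lines did not overlap for 4 of the 10 genes, against 26.8% of all genes. The interaction of sex and cross had 0 calls among the 10, with 2 at an unadjusted p below 0.05 (*Ccnd2* and *Cdkn2b*), against 0.0738% and 9.05% of all genes.

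Partners and targets of these genes were examined as lists, whose counts stand beside the 5.21% of all genes called over both crosses (1.99% lower in XX lines), 5.7% in the BC cross and 3.57% in the CB cross. Of 9 G1 and S kinases and partners, 3 were lower in XX than in XY lines and 0 higher, with a median log2 fold change of -0.06 against -0.03 over all genes tested. They were *Cdk2*, the partner of cyclin E (-0.64, adjusted p = 0.0342), *Cdk6*, a partner of the D cyclins (-0.64, adjusted p = 0.0290), and *Cdc25a*, the phosphatase that activates Cdk2 (-0.48, adjusted p = 0.0260; all limma). *Cdk2* (-0.88, SE 0.20) and *Cdc25a* (-0.61, SE 0.14) were called in the BC cross and *Cdk6* (-0.97, SE 0.17) in the CB cross. Without the *Uty*-low lines, the XX against XY values were -0.64, -0.56 and -0.50, with adjusted p of 0.104, 0.144 and 0.0878, and the CB value of *Cdk6* was -1.06 (adjusted p = 0.110), so that these 4 calls were lost at folds of like size. Adjusted for the mesenchymal level, *Cdk6* was called in XX against XY (-0.81, adjusted p = 0.0295). *Cdk2* moved to -0.33 (adjusted p = 0.340) and *Cdc25a* to -0.37 (adjusted p = 0.196) under that covariate, and neither was called.

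The remaining inhibitor of the CIP/KIP family, *Cdkn1c* (p57), an imprinted gene on chromosome 7, was called lower in XX lines, as 1 of 2 further inhibitors tested over both crosses. Its mean value was 219 in XX and 525 in XY lines (log2 fold change -1.27, SE 0.26, limma, adjusted p = 0.0158), and 152 against 639 in the CB cross (-1.99, SE 0.25, adjusted p = 0.00266), whereas it was -0.55 in the BC cross (adjusted p = 0.204). Without the *Uty*-low lines the values over both crosses and in the CB cross were -1.25 (adjusted p = 0.0716) and -2.49 (adjusted p = 0.00990). Of 13 genes of the RB and E2F families, *E2f7*, a repressor of the family, was lower in XX lines (-0.80, adjusted p = 0.0198, and -0.98 in the CB cross, adjusted p = 0.0349), and no other member was called in these comparisons. Without the *Uty*-low lines the values were -0.82 (adjusted p = 0.0763) and -1.13 (adjusted p = 0.192), of the former size or larger but not called.

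Among 13 genes of the Max network, which pair or compete with Myc proteins, 0 were called in XX against XY or within either cross by limma (median -0.09, -0.12 and -0.03). Of 29 growth genes known as Myc targets, 1 was called over both crosses, the X-linked *Dkc1*, which encodes dyskerin and was higher in XX lines (0.48, SE 0.09, adjusted p = 0.0106), and in the BC cross *Tfrc*, the transferrin receptor, was lower (-0.62, SE 0.13, adjusted p = 0.0160) and *Dkc1* higher (0.53, adjusted p = 0.0398). The median over the 29 was -0.20 in the BC cross and 0.08 in the CB cross, against -0.04 and -0.02 over all genes. Of 28 DNA replication genes, 1 was called in each of the 3 comparisons, the X-linked polymerase gene *Pola1*, which was higher in XX lines (0.89, SE 0.13, adjusted p = 0.00174 over both crosses). In the CB cross it was 1.02 (adjusted p = 0.00762), and 0.94 without the *Uty*-low lines, where it was not called (adjusted p = 0.129). The list median was -0.24 within BC and 0.10 within CB lines. Of 18 mitosis genes, *Aurka* was lower in BC XX lines (-0.75, SE 0.18, adjusted p = 0.0270), and 0 were called over both crosses or in the CB cross.

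Of 9 ubiquitin ligase and protease genes that act on G1 proteins, *Skp2*, which targets p27 for destruction, was lower in BC XX lines (-0.57, SE 0.15, limma, adjusted p = 0.0442), and 0 were called over both crosses. Of 22 genes of p53 and its targets, the X-linked *Eda2r* was higher in XX lines in all 3 comparisons (1.06, SE 0.15, adjusted p = 0.00154 over both crosses), and *Ccng1*, cyclin G1, was higher in BC XX lines (0.94, SE 0.24, adjusted p = 0.0378). The p53 list had a median of 0.38 in the BC cross and 0.02 in the CB cross. Adjusted for the mesenchymal level, 0 of the 9 list genes called in the BC cross were called (adjusted p from 0.301 to 0.982). The log2 fold change stayed similar or grew for *Skp2* (-0.83), *Aurka* (-0.81), *Tfrc* (-0.73), *Cdc25a* (-0.63) and *Dkc1* (0.66). *Eda2r* moved from 1.13 to 0.84 in the BC cross, whereas *Cdk2* was at -0.33, *Pola1* at 0.29 and *Ccng1* at 0.06. The calls over both crosses of *Pola1* (0.81, adjusted p = 0.0132), *Dkc1* (0.50, adjusted p = 0.0425) and *Eda2r* (1.18, adjusted p = 0.00278) held with the *Uty*-low lines left out, as did that of *Eda2r* in the CB cross (1.46, adjusted p = 0.0182). Leaving out 1 line at a time, the BC calls of *Skp2* and *Dkc1* held in 3 and 5 of 14 fits and the CB call of *E2f7* in 7 of 14, and over both crosses *Cdk2*, *Cdk6* and *Cdc25a* held in 4, 6 and 6 of 12.

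Marker lists of other cells were read in the same way. Of the 31 mesenchymal genes, 19 were higher in BC XX than in BC XY lines (median log2 fold change 2.12), where 5.7% of all genes were called, and 0 were called in the CB cross by limma (median 0.25), where 3.57% were. Over both crosses, where 5.21% were called, *Thy1* (1.51) and *Sparc* (1.19) were higher in XX lines, at 1.45 and 1.18 without the *Uty*-low lines (adjusted p = 0.148 and 0.115). Of 9 primitive endoderm genes, *Lama1* was lower in XX lines over both crosses (-0.95, adjusted p = 0.0392) and *Foxa2* within CB (-2.14, adjusted p = 0.0383). With the *Uty*-low lines left out these were -0.72 (adjusted p = 0.157) and -3.07 (adjusted p = 0.0293). Of the 11 ES cell genes and up to 7 trophoblast genes, 0 were called in these comparisons. Of 4 Y-linked genes, *Uty* was lower and *Kdm5d* higher in BC XX than in BC XY lines (-3.72 and 2.13, adjusted p = 0.0471 and 0.0407).

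**Figure D5:**
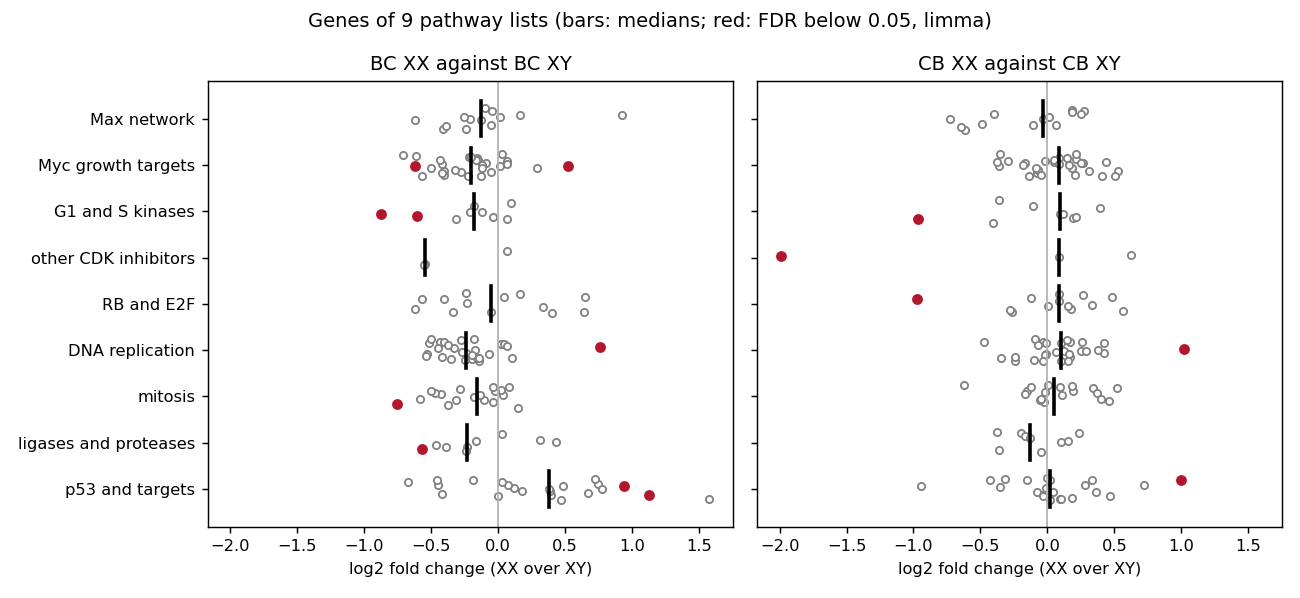
Log2 fold changes of XX over XY lines in the BC and CB crosses for the genes of 9 lists (points, 1 per gene, spread vertically for legibility), with the list medians as bars; red points passed an FDR of 0.05. Medians of DNA replication genes lie at -0.24 within BC and 0.10 within CB lines, and the red point farthest to the left is *Cdkn1c* at -1.99 in the CB cross.

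The genes whose pattern over the 14 lines was most like that of a member were found by Pearson correlation among 16275 genes, as a description. *Ccnd2* was most like *Fat4*, a protocadherin gene (r = 0.98), followed by *Slc5a7* and *Cacna2d1* (0.97 each), and *Cdkn2b* most like *Lrrc17* (0.94), *Txndc15* (0.94) and *Rcan1* (0.93). *Mycn* was most like *Chchd6* (0.93), *Tmem59l* (0.92) and *Bdh1* (0.92). *Ccnd3* was most like *Erf*, a repressor of the ETS family (0.98), and *Cdkn1b* like *Wdr86* (0.96) and *Adipor2* (0.93), the latter on chromosome 6 as well. *Ccne1* was most like *Ccdc116* (0.92) and *Wdr73* (0.90), with the mitotic gene *Birc5* next (0.86). *Cdkn1a* was most like *Pip4k2a* (0.95), *Cdkn2a* like *Rxra* (0.94), *Ccnd1* like *Aqp1* (0.91) and *Myc* like *Zfp532* (0.87), the lowest of these leading correlations.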

How the data were processed

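RNA from 14 ES cell lines (6 XX, 6 XY and 2 XO) was sequenced from stranded total RNA libraries with single-end reads. According to the methods and the processing notes, reads were aligned to mm9 with TopHat2 and genes compared with Cuffdiff of the Cufflinks suite. The deposited signal per gene is a number of reads that the authors scaled to a common depth. Within a line 95.3% to 97.9% of values were whole multiples of 1 step (tolerance 0.02 steps). Library batches are not assigned to lines in the sources used here. Gene positions and exon lengths came from GENCODE vM1 on NCBIM37 (mm9).

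Values were compared as log2(value + 5), with a filter of at least 10 in at least 6 lines for XX against XY and in at least 2 lines for a model of 5 groups, with limma 3.58.1 (trended variance) in R 4.3.3, p-values adjusted by Benjamini-Hochberg across the whole table, and an FDR of 0.05. Left out were 15 genes listed at 0 in a whole group and reaching 100 elsewhere. The fits were tested on simulated data in which 200 genes moved 2-fold: XX against XY recovered 76.5% (15335 genes, 10 false calls) and BC XX against BC XY 50.5% (16174 genes, 6 false calls). Each simulated gene otherwise had the same mean in all lines, with independent noise of its spread within groups. Differences between crosses and in mesenchymal level were not simulated, so that recovery in the real lines was not tested. Python 3.11.15 joined the tables.

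The 10 genes and the lists were chosen with earlier results of these data known. Named were the 10 genes, the Y-linked genes and *Xist*. From each list, up to 4 genes with the largest called change in XX against XY or within a cross were named. Up to 3 genes most like each of the 10 were also named. Alternatives were a pseudocount of 1, no filter, TMM and median-of-ratios factors, the mesenchymal level or the cross as a covariate, leaving out CB XY 2 and CB XY 3, chromosome-centred values, a replicate block, and each line left out. The same alternatives were applied to list genes after their values were seen. Promoters are from the RefSeq table (GRCm38.p6), searched on both strands.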

Additional observations from a re-analysis of the deposited data

How the results depend on the processing

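The counts of called genes moved as follows. In XX against XY the 1 call became 0 with the mesenchymal level as a covariate and without the *Uty*-low lines, and 2 with the cross as a covariate. In the BC cross the 3 calls became 0 with the mesenchymal level as a covariate, and in the CB cross the 1 call became 0 without the *Uty*-low lines. For BC XX against BC XO the 1 call became 0 with no filter and with the mesenchymal level as a covariate. For BC XX against CB XX the 1 call became 0 with no filter, with the mesenchymal level as a covariate, without the *Uty*-low lines and with chromosome-centred values, and 2 with TMM factors. For BC XY against CB XY, 0 calls became 1 with the mesenchymal level as a covariate. Over all genes, 1023 of 16261 were called in that fit, against 104 without the covariate. Leaving out 1 line at a time gave 0 to 4 calls in XX against XY, 0 to 3 in the BC cross, 0 to 1 in the CB cross, 0 to 3 for BC XX against BC XO and 0 to 3 for BC XX against CB XX. Over all genes, the calls in these fits ran from 410 to 1746, 229 to 1144, 145 to 653, 5 to 1093 and 119 to 2576, in the same order.

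The replicate number was fitted as a block without the CB XX lines, whose column numbers do not match the numbers in their labels. This fit left 3 calls in the BC cross and 0 for BC XO against BC XY. It changed the calls to 0 for BC XX against BC XO and to 1 for BC XY against CB XY. Over all 16122 genes tested, 1129, 1, 332 and 368 were called in these comparisons, in the same order. Lines of the same number deviated from their group means with a correlation of -0.49 to 0.27. Deviations within such small groups depend on each other, so that these correlations cannot tell whether the numbers pair the lines.

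Of 32 log2 fold changes of the 10 genes, the direction turned in 21 of 673 alternative values. With the mesenchymal level as a covariate they were, for XX against XY, -0.20 (*Ccnd1*), -0.18 (*Ccnd2*) and 0.57 (*Ccnd3*), in the BC cross -0.38 (*Ccnd2*) and -0.028 (*Cdkn2b*), in the CB cross -0.17 (*Ccnd2*) and -0.022 (*Cdkn2b*), -0.65 for *Ccnd2* in BC XX against BC XO, -0.23 for *Ccnd2* in BC XX against CB XX, and for the interaction -0.21 (*Ccnd2*) and -0.00527 (*Cdkn2b*). Without the *Uty*-low lines they were 0.078 (*Ccnd3*, XX against XY) and -0.27 (*Ccnd2*, CB cross), and with chromosome-centred values 0.044 (*Ccnd3*, XX against XY). Leaving out a line gave -0.058 to 0.25 for *Ccnd1* and -0.30 to 0.14 for *Ccnd3* in XX against XY, and -0.33 to 0.73 for *Ccnd2* and -0.18 to 0.46 for *Cdkn2b* in the CB cross. Of the 21 values, those of *Ccnd2* and *Cdkn2b* in the BC cross were the ones whose main value had passed the test, and the cause was not tested. Of the 22 log2 fold changes of list genes, 0 of 463 alternative values turned and 104 no longer passed the test. Over all genes, the 797 calls of XX against XY became 1697 with the cross as a covariate, 490 with the mesenchymal level as a covariate and 313 without the *Uty*-low lines, the 927 calls of the BC cross became 8 with the mesenchymal level and the 581 of the CB cross 133 without the *Uty*-low lines.

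Groups of 2 or 3 lines limit what can be called, and CB XY 2, with about 11900000 reads, was the least deeply sequenced line.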
